A study of Mus musculus with 5 samples.

Results

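The genes described here are 39 imprinted genes of the mouse, taken as a list of gene names and not by a threshold on any value measured in these samples. A gene model on the mm9 genome (assembly NCBIM37) was available for 38 of the 39, out of 37311 genes in all, and Peg13 was not analysed here. The 39 genes make up 16 chromosomal clusters or single loci. They were followed in global run-on sequencing data, in which polymerases already engaged on DNA extend their RNA in isolated nuclei with a brominated nucleotide. RNA that carries the mark is then captured and sequenced. A read reports where a polymerase stood and on which strand, not how much stable RNA a cell held.

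Genomic imprinting leaves a gene transcribed mainly from the chromosome inherited from one parent. A cluster is controlled from an imprinting control region, a stretch of DNA that is methylated in only one of the parental germ lines, and many such regions are promoters of long noncoding RNAs or lie close to them. Many imprinted genes act on fetal and placental growth, and their marks have to be kept in embryonic stem cells through repeated divisions.

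The comparison was between embryonic stem cells and fibroblasts. MESC were embryonic stem cells of the V6.5 line, kept on irradiated feeder cells with LIF and used at passages 12 to 14, with 3 samples. MEF were embryonic fibroblasts of male embryos at stage E13.5, grown without LIF and used at passage 2, with 2 samples. Both came from a cross of a C57Bl/6 mother and a 129/Sv father. Neither cell type carried a mutation or received a treatment, and V6.5 is a single line.

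The deposited files pool the samples of each cell type, which leaves 1 library for MESC with 8616592 reads and 1 for MEF with 6583644. No difference between them has a replicate check, and no p-value between cell types is given. Intervals are exact 95% intervals for counting error only, and amplified reads that carry no molecular identifier need not be independent. Windows of 10000 bp that each held more than 0.5% of a library's reads lay on chromosomes 13 and 17. Together they held 11.5% of MESC reads and 16.4% of MEF reads, and their likeness to ribosomal DNA was not tested. The 7 stem cell markers with enough reads all passed 4-fold toward MESC, as did 7 of 8 fibroblast markers toward MEF. Summed over the 8 fibroblast markers, the read density was 9.80 RPKM in MESC and 134 RPKM in MEF. MESC were grown on feeder cells, and the part of feeder nuclei in the MESC values was not tested. Fewer transcribing cells and fewer polymerases per cell cannot be told apart in such bulk libraries. All 3 macrophage markers with enough reads passed 4-fold toward MEF, with a density summed over all 7 markers of 0.133 RPKM in MESC and 2.67 RPKM in MEF.

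Most imprinted genes were transcribed in both cell types. Density is given as RPKM, sense reads per kilobase of gene scaled to the library's reads outside the mitochondrial genome. A gene counted as above the intergenic level when the lower bound of its whole-gene density exceeded the mean density of DNA more than 10000 bp from any gene, 0.0218 RPKM in MESC and 0.0168 RPKM in MEF. By that rule 34 of the 38 genes counted as transcribed in MESC and 32 in MEF, and 31 in both. Short genes can pass on few reads, as Usp29 did in MEF on 3 reads and Phlda2 in MESC on 5. Over all 22886 genes of at least 2000 bp the same rule held for 68% in MESC and 64.1% in MEF. Of the 38 imprinted genes, 36 had a model of that length. The genes known as paternally expressed were above it in 18 of 20 cases in each cell type. Those known as maternally expressed were above it in 10 of 10 cases in MESC and 8 of 10 in MEF.

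**Figure D1:**
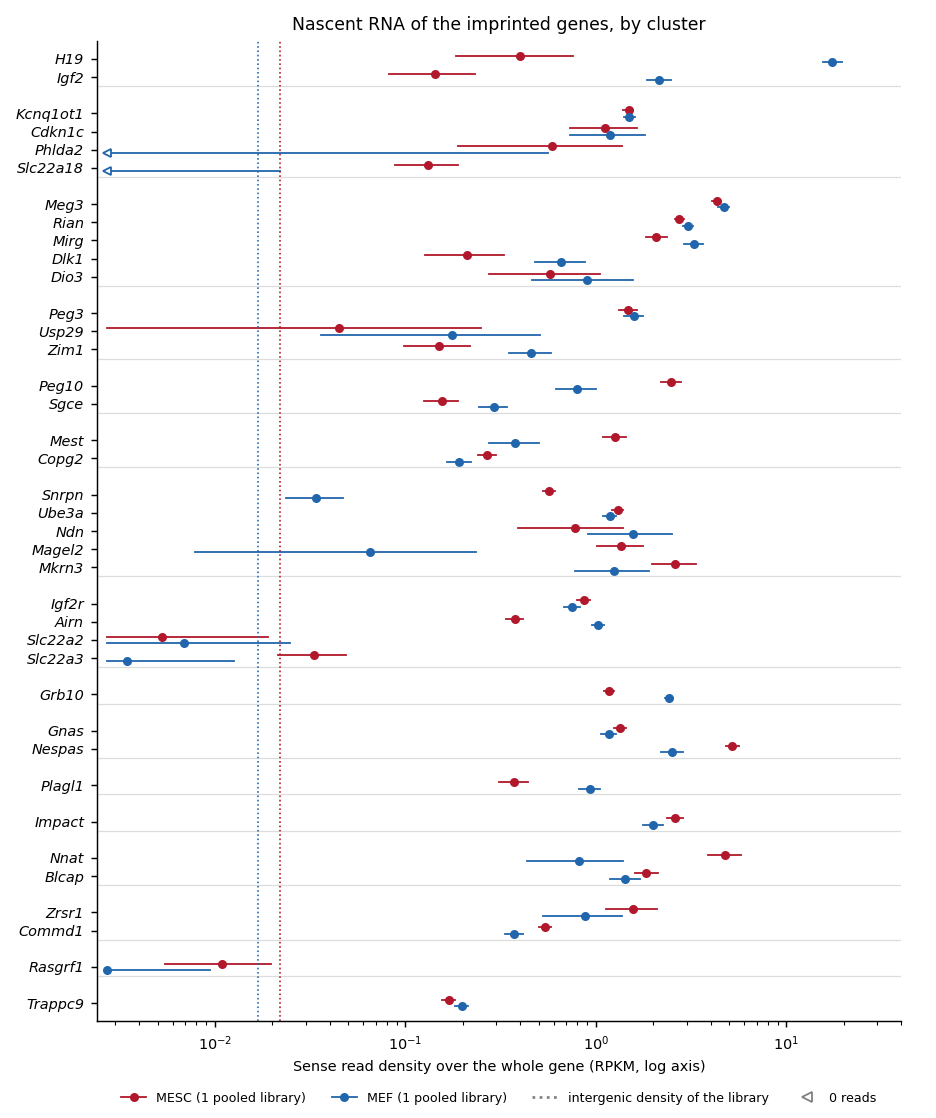
Sense read density of each imprinted gene over its whole length (RPKM, log axis), MESC above MEF within each gene, with genes grouped by cluster. Bars are exact 95% Poisson intervals of 1 pooled library each, cut at the left edge of the axis, dotted lines mark the intergenic density, and open triangles mark genes with 0 reads. H19 is at 0.402 RPKM in MESC and 17.4 RPKM in MEF, and most other genes lie close together in both.

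Gene bodies, counted from 1000 bp after the start to the annotated end, held at least 50 reads in 1 library for 23 of the 38 genes. Of these 23, 1 passed 4-fold toward MESC (Snrpn) and 2 toward MEF (H19 and Igf2), while 20 stayed within 4-fold and 14 within 2-fold. Of all 11379 genes tested the same way, 7.94% passed 4-fold toward MESC and 5.55% toward MEF, and 66.7% stayed within 2-fold. The share of imprinted genes past 4-fold, 4.35% in the MESC direction and 8.70% in the MEF direction, rests on 3 genes and lies near that background. Their median log2 ratio of MESC over MEF was -0.04, beside 0.30 for all genes tested. Scaling to the median gene in place of the read total moves that 0.30 to 0, and the share of MESC-higher genes among all called genes is then 48.2% in place of 58.8%. The 3 imprinted genes stayed past 4-fold under that scaling. The body interval held a ratio of 1 for 4 of the 23 genes, lay above it for 10 and below it for 9.

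**Figure D2:**
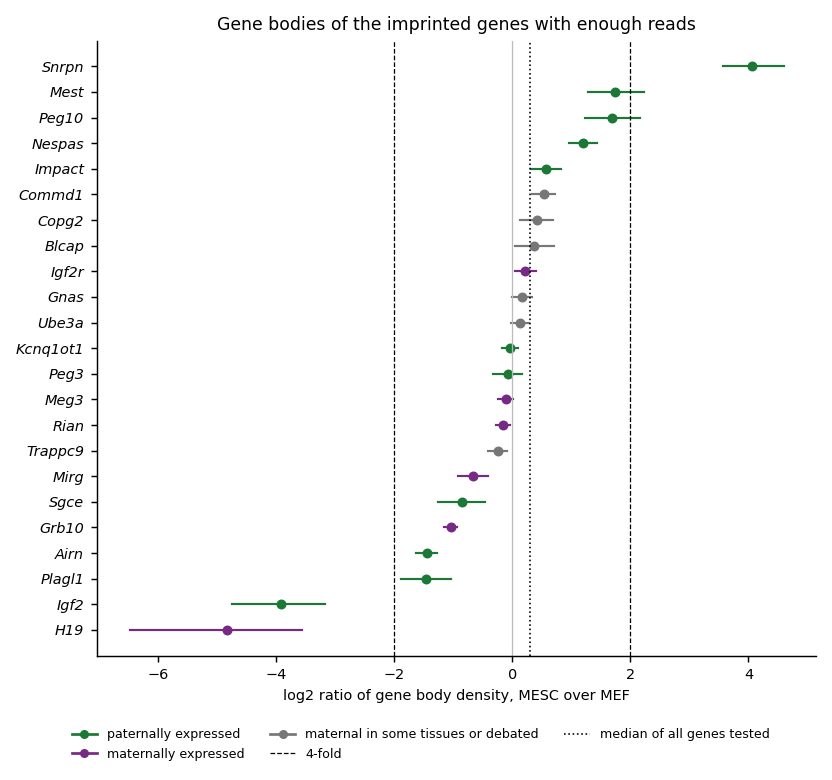
log2 ratio of gene body density, MESC over MEF, for the 23 imprinted genes with enough reads, sorted from high to low, with exact conditional 95% intervals for counting error. Dashed lines mark 4-fold and the dotted line the median of all genes tested (0.30). Snrpn stands at 4.06, Igf2 at -3.91 and H19 at -4.83, and all others lie between the dashed lines.

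Promoter windows, which run from -50 to 300 bp around the start of the longest transcript, held at least 20 reads in 1 library for 11 genes. Of these 11, Nnat and Copg2 passed 4-fold toward MESC and H19 toward MEF. The background was 6.2% of 5016 promoter windows for MESC and 2.97% for MEF. Nnat had 79 promoter reads in MESC and 11 in MEF, Copg2 22 in MESC and 4 in MEF, and H19 3 in MESC and 95 in MEF. Copg2 passed 4-fold by little, at 4.22-fold (1.43 to 16.8), and was not called under any other setting tried, being either below 4-fold or short of reads there. With each position counted once, H19 alone remained past 4-fold. The median log2 ratio of the 11 windows was 0.87, beside 0.31 for all windows tested. That median had the other sign in 5 of the 10 alternatives, each with fewer windows. It was -0.18 with each position counted once (7 windows), -0.17 with MESC thinned to the MEF total (8 windows) and -0.20 with at least 50 reads (5 windows). With the MESC reads of 35 bases alone it was -0.44 (6 windows) and with those of 36 bases alone -0.40 (7 windows). With the median gene as the scale, the share of MESC-higher windows among all called windows is 53.8% in place of 67.6%.

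RefSeq promoter sequences were matched base for base to NCBIM37 for 31 of the 39 genes. No entry was at hand for H19, Cdkn1c, Peg10, Sgce, Nespas, Impact, Peg13 and Trappc9. Those of Snrpn, Nnat, Meg3 and Kcnq1ot1 are shown, starts at which the later results turn, running from 250 bases before to 50 bases after the RefSeq start. Snrpn and Nnat had far more reads at these starts in MESC, and Meg3 and Kcnq1ot1 are noncoding RNA starts used in both cell types. Capitals mark the hexamer TGCCGC on either strand (GCGGCA on the other), the core known to be bound, when methylated, by the imprint-maintaining zinc finger protein ZFP57.
Snrpn, chr7:67150036-67150335, minus strand: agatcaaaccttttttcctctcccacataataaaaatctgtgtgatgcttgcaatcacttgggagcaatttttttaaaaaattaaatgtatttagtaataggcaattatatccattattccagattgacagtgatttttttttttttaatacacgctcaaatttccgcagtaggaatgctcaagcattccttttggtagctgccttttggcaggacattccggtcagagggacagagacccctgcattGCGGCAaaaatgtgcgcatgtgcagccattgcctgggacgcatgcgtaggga
Nnat, chr2:157385564-157385863, plus strand: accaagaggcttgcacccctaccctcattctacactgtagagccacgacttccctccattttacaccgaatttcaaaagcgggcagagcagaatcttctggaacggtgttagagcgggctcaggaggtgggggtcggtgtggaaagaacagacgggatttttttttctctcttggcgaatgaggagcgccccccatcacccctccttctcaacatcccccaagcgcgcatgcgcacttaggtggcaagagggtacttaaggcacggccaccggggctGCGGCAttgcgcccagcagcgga
Meg3, chr12:110778956-110779255, plus strand: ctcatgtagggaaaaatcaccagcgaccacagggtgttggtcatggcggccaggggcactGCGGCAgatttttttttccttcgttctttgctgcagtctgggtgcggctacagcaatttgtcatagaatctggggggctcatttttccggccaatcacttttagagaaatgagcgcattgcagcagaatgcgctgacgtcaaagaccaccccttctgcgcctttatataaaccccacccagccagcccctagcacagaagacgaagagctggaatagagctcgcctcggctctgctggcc
Kcnq1ot1, chr7:150482403-150482702, minus strand: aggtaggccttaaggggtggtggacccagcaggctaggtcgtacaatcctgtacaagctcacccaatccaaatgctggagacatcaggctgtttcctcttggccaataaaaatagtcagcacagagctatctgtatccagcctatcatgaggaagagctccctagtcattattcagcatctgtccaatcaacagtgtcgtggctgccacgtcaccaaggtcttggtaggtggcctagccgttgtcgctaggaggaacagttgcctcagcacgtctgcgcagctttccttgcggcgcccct
The Snrpn, Nnat and Meg3 windows hold 1 match each and the Kcnq1ot1 window holds none. The Airn and Peg3 windows, not shown, hold 0 matches each. Over the 45 windows of the imprinted genes, 26.7% hold a match, beside 11.6% of all 32851 RefSeq promoter windows of the same length. The imprinted genes' windows also held more CpG, with a median of 14 per 300 bases beside 7 over all windows, and G and C made up 55.7% of their bases at the median beside 52.7%. A match describes these letters and is not evidence of a bound site. The sequences are from RefSeq (GRCm38.p6), with positions given on NCBIM37.

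H19 and Igf2 share a cluster on chromosome 7 and had the lowest MESC to MEF ratios of the 23 bodies. H19, a maternally expressed noncoding RNA (chromosome 7, 149761434 to 149764048, minus strand), had 9 reads in MESC and 299 reads in MEF. Its density was 0.402 RPKM (0.184 to 0.762) in MESC and 17.4 RPKM (15.5 to 19.5) in MEF, which is 43.3-fold (22.5 to 95.7) lower in MESC. H19 was the most densely read of the 38 genes in MEF. Igf2, the paternally expressed fetal growth factor, had 16 reads in MESC and 185 reads in MEF, which is 15.1-fold (9.04 to 26.9) lower in MESC. The MESC reads of Igf2 were uneven between the read lengths in that file, with 3 among the reads of 35 bases and 13 among those of 36 bases. With either length alone the gene stayed more than 4-fold lower in MESC, at log2 ratios of -5.22 and -3.32. Igf2 starts at several promoters, and the one with the most reads, at position 149843401, held 2 reads in MESC and 30 reads in MEF. The 72.6 kb between the end of Igf2 and the start of H19 held 26 reads of that strand in MESC and 149 in MEF. H19 has no body past 3000 bp, and with bodies starting there it is not counted.

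Snrpn differed in the other direction. This paternally expressed gene encodes a spliceosomal protein and lies in the mouse counterpart of the region linked in human to Prader-Willi and Angelman syndromes. Its short transcript (chromosome 7, 67127388 to 67150042, minus strand) held 747 reads in MESC and 33 reads in MEF. That is 3.85 RPKM (3.58 to 4.13) in MESC and 0.222 RPKM (0.153 to 0.311) in MEF, a ratio of 17.4 (12.2 to 25.4). Nearly all reads of the longest model belonged to this short transcript, since the 135 kb between the start of the longest model and the short start held 18 reads in MESC and 2 reads in MEF. The promoter window of the short start held 51 reads in MESC and 4 reads in MEF, a ratio of 9.77 (3.59 to 37.2). Both MESC read lengths gave a like density over the longest model, 0.536 RPKM for 35 bases and 0.592 RPKM for 36 bases. Upstream on the opposite strand, the 500 bp before that start held 28 reads in MESC and 1 read in MEF.

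Polymerase continued past the annotated Snrpn end in MESC. The first 100 kb downstream held 808 reads of the Snrpn strand in MESC and 46 reads in MEF, at 0.943 RPKM in MESC and 0.0700 RPKM in MEF. These MESC reads were not spread evenly. The density was 2.01 RPKM from 45 to 50 kb past the short start and 0.420 RPKM from 50 to 55 kb. Farther on, no 5 kb bin passed 0.467 RPKM in MESC. In the next 100 kb there were 84 reads in MESC and 37 reads in MEF, and in the third 100 kb 3 reads in MESC and 6 reads in MEF. In neurons a long transcript of this strand is known to run on into Ube3a as its antisense RNA. Of the 300 kb past the end, 50 kb are unknown bases in this assembly, none of them in the first 100 kb. From 150 to 200 kb past the short start, within the second 100 kb, no read of this strand was found in either library. Reads cannot be placed on unknown bases, so the counts past the first 100 kb do not show where polymerase stopped. Over Ube3a itself, an E3 ubiquitin ligase gene, the antisense strand held 8 reads in MESC and 11 reads in MEF, while the sense strand held 870 reads in MESC and 606 reads in MEF. The sense density of Ube3a was 1.30 RPKM (1.22 to 1.39) in MESC and 1.18 RPKM (1.09 to 1.28) in MEF, a body ratio of 1.10 (0.989 to 1.22).

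The other 3 genes of that cluster are short, without introns in their coding parts, and had few reads. Magel2, a MAGE family gene, held 54 reads in MESC and 2 reads in MEF, a ratio of 20.7 (5.46 to 175). Its body had 37 reads in MESC and 0 in MEF, too few for the body rule. Mkrn3, a makorin RING finger gene known from the timing of puberty, held 57 reads in MESC and 21 reads in MEF, a ratio of 2.08 (1.24 to 3.61). Before its start, 500 bp of the opposite strand held 54 reads in MESC and 6 reads in MEF. Ndn, which encodes necdin, held 11 reads in MESC and 17 reads in MEF, and its interval of 0.210 to 1.12 included a ratio of 1. Magel2 and Mkrn3 thus lay on the side of Snrpn and Ndn did not, although all 3 are paternally expressed.

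**Figure D3:**
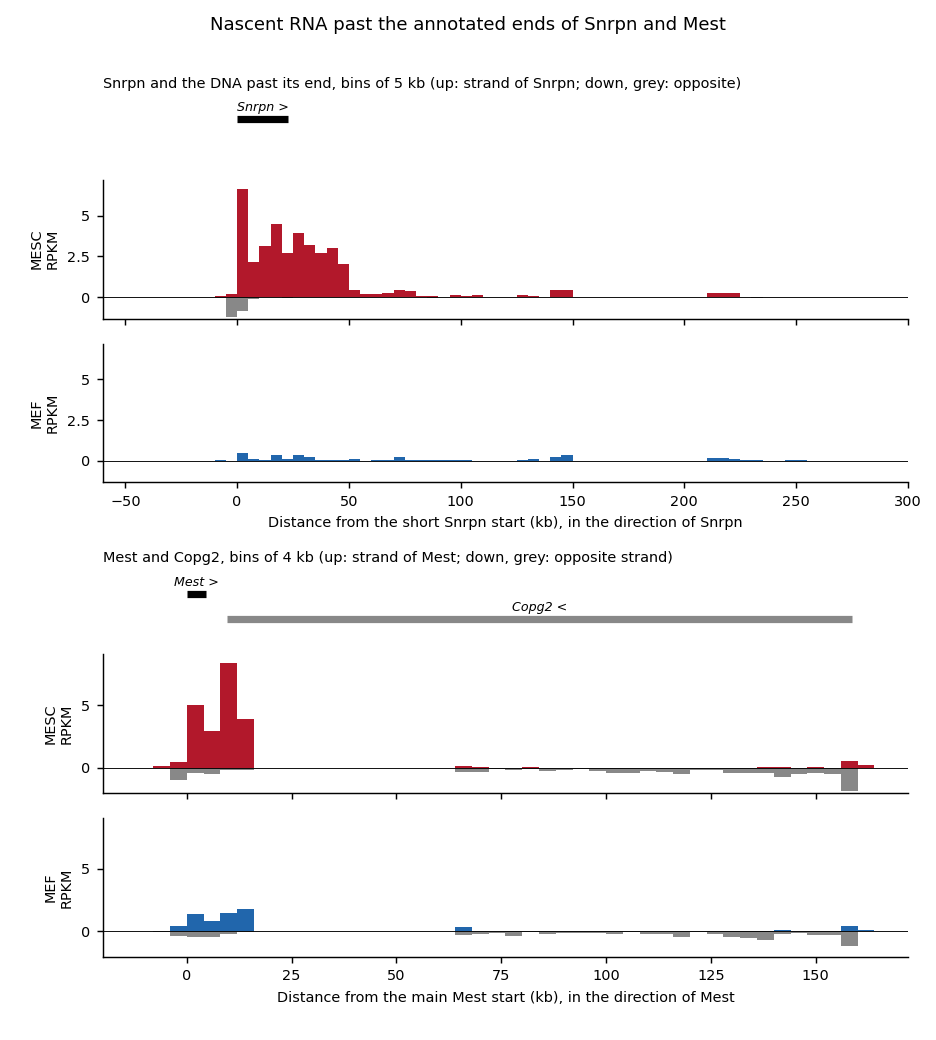
Read density (RPKM) by distance from the short Snrpn start (top, bins of 5 kb) and from the main Mest start (bottom, bins of 4 kb), MESC above MEF. Coloured bars upward are the strand of Snrpn or Mest, grey bars downward the opposite strand, and thick lines show gene models. Snrpn reads extend well past the model end in MESC, and the empty stretch after Mest is 50 kb of unknown bases. The 300 kb past the Snrpn end also hold 50 kb of unknown bases, none in the first 100 kb.

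Nnat, a small membrane protein gene in an intron of Blcap, also had more polymerase in MESC. Its paternally expressed transcript (chromosome 2, 157385814 to 157388240, plus strand) held 99 reads in MESC and 13 reads in MEF. The density was 4.76 RPKM (3.87 to 5.79) in MESC and 0.815 RPKM (0.434 to 1.39) in MEF, a ratio of 5.84 (3.26 to 11.3). Most of these reads stood near the start, where the promoter window had 79 in MESC and 11 in MEF. One position held 21 of the MESC promoter reads, and the window had 35 distinct positions in MESC and 7 in MEF. Past the Nnat end the same strand held 392 reads in MESC and 100 reads in MEF up to the Blcap start, which is 3.01-fold (2.41 to 3.78) higher in MESC. Blcap, on the opposite strand, had 208 reads in MESC and 123 reads in MEF, a body ratio of 1.30 (1.03 to 1.63). The host gene thus differed less between the cell types than the gene inside it.

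From Meg3 to Mirg, the Dlk1-Dio3 domain on chromosome 12 was transcribed along its maternal noncoding strand at densities within 2-fold of each other in both cell types. The DNA before Meg3 differed more. From 15 to 10 kb before the Meg3 start, MESC had 47 reads on the plus strand and 56 on the minus strand. MEF had 0 on either strand there. Meg3, Rian and Mirg are noncoding RNAs, Rian and Mirg being hosts of small nucleolar RNAs and microRNAs. Meg3 held 1132 reads in MESC and 948 reads in MEF, at 4.30 RPKM (4.05 to 4.56) in MESC and 4.70 RPKM (4.40 to 5.01) in MEF. Rian held 1356 reads in MESC and 1153 reads in MEF, at 2.74 RPKM (2.59 to 2.89) in MESC and 3.04 RPKM (2.86 to 3.22) in MEF. Mirg held 258 reads in MESC and 310 reads in MEF, at 2.08 RPKM (1.83 to 2.35) in MESC and 3.26 RPKM (2.91 to 3.64) in MEF. The body interval of Meg3 held a ratio of 1, and those of Rian and Mirg lay below it. The body ratios were 0.926 (0.845 to 1.01) for Meg3, 0.899 (0.830 to 0.974) for Rian and 0.630 (0.529 to 0.750) for Mirg. Small RNA genes inside Rian took 6.56% of its reads in MESC and 4.34% in MEF.

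Reads did not stop between these genes. The gap from Meg3 to Rian held 816 reads in MESC and 626 reads in MEF, at 2.95 RPKM in MESC and 2.96 RPKM in MEF. From Rian to Mirg, 73.3 kb, there were 1446 reads in MESC and 1312 reads in MEF. From the Meg3 start to the Mirg end, 208 kb, the plus strand held 5008 reads in MESC and 4349 reads in MEF. The run ended soon after Mirg, where the next 50 kb held 58 reads in MESC and 72 reads in MEF, and the 50 kb after that held 2 reads in MESC and 4 reads in MEF. On the minus strand of the same 208 kb there were 144 reads in MESC and 5 in MEF. Of the MESC reads, 135 fell in a single 1 kb stretch of Mirg at 3 positions.

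Dlk1 and Dio3, the protein genes at the flanks, are paternally expressed. Dlk1, a membrane protein that restrains adipocyte formation, held 19 reads in MESC and 45 reads in MEF, which is 3.09-fold (1.77 to 5.59) lower in MESC. Dio3, which inactivates thyroid hormone, held 10 reads in MESC and 12 reads in MEF. Both lay below Meg3, Rian and Mirg in density, with Dlk1 at 0.211 RPKM in MESC and 0.653 RPKM in MEF and Dio3 at 0.575 RPKM in MESC and 0.900 RPKM in MEF. At the most used Meg3 start, 42 of the 78 MESC reads and 30 of the 68 MEF reads of the window shared a single position.

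**Figure D4:**
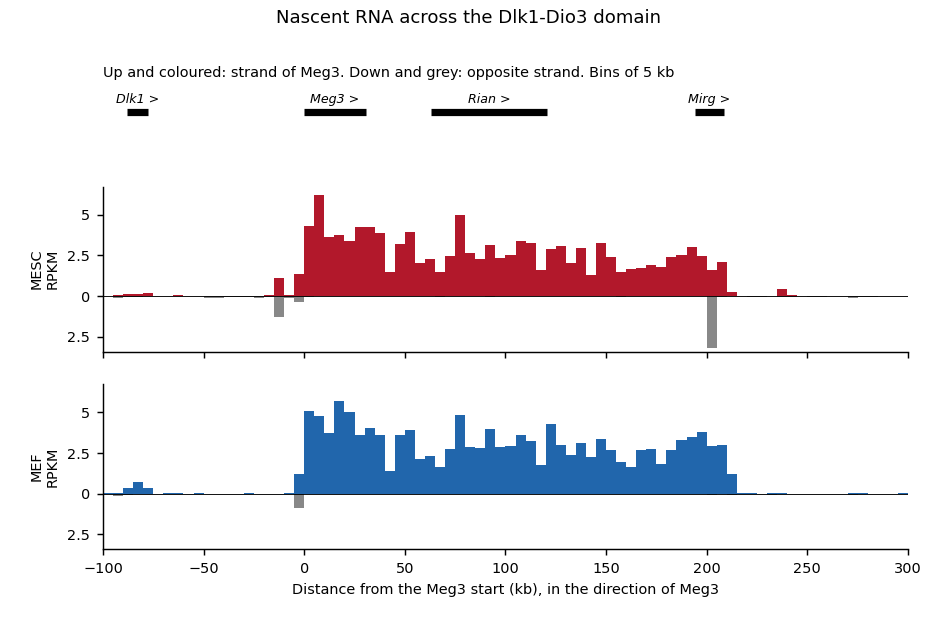
Read density (RPKM, bins of 5 kb) across the Dlk1-Dio3 domain by distance from the Meg3 start, MESC above MEF. Coloured bars upward are the strand of Meg3 and grey bars downward the opposite strand, with gene models as thick lines. The plus strand is filled without a gap from the Meg3 start to the Mirg end in both cell types, and the grey bar near Mirg in MESC holds the 135 reads at 3 positions.

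Kcnq1ot1 had an interval that held a ratio of 1, while the protein genes of its cluster had few reads. Kcnq1ot1 is the paternal noncoding RNA that runs against Kcnq1 and is known to silence neighbours in cis. Over its 83.4 kb (chromosome 7, 150399016 to 150482452, minus strand) it held 1061 reads in MESC and 823 reads in MEF. Its density was 1.48 RPKM (1.40 to 1.58) in MESC and 1.50 RPKM (1.40 to 1.61) in MEF, a ratio of 0.988 (0.901 to 1.08). The first 20 kb held 203 reads in MESC and 130 in MEF, and kb 60 to 80 held 276 in MESC and 334 in MEF. Within that stretch the reads were uneven, with 107 in MESC and 82 in MEF from kb 64 to 68, but 18 in MESC and 28 in MEF from kb 76 to 80. The Kcnq1 strand over the same DNA held 16 reads in MESC and 12 reads in MEF. Upstream of that overlap Kcnq1 had 41 reads in MESC and 2 reads in MEF.

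Cdkn1c, the cyclin-dependent kinase inhibitor p57, held 26 reads in MESC and 21 reads in MEF, a ratio of 0.949 (0.514 to 1.77). Slc22a18, a transporter gene, held 29 reads in MESC but 0 reads in MEF. With 3 reads standing for the 0 it was 7.41-fold higher in MESC, and the lower bound of its ratio from the counts was 5.65. Phlda2, known to limit placental growth, held 5 reads in MESC and 0 reads in MEF over 997 bp, which this depth cannot separate. Neither Slc22a18 nor Phlda2 was above the intergenic level in MEF.

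Airn was lower in MESC, and Igf2r, which shares part of its DNA, was close in both. Igf2r, the maternally expressed receptor that clears IGF2, held 646 reads in MESC and 431 reads in MEF, at 0.864 RPKM (0.798 to 0.933) in MESC and 0.752 RPKM (0.682 to 0.826) in MEF. Airn, the paternal noncoding RNA that starts inside Igf2r and runs the other way, held 383 reads in MESC and 801 reads in MEF. Its density was 0.376 RPKM (0.339 to 0.416) in MESC and 1.03 RPKM (0.956 to 1.10) in MEF, which is 2.73-fold (2.41 to 3.09) lower in MESC. The body ratio of Igf2r was 1.16 (1.03 to 1.32), and its side of 1 changed with the scaling to the median gene.

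Along Airn the difference was greatest in its last part. Over the 28.4 kb shared with Igf2r, Airn held 97 reads in MESC and 163 reads in MEF, 2.19-fold (1.69 to 2.85) lower in MESC. In the 50 kb after that it held 229 reads in MESC and 368 reads in MEF, and in the last 40.5 kb 57 reads in MESC and 270 reads in MEF, 6.18-fold (4.63 to 8.37) lower in MESC. The density of Igf2r over the DNA shared with Airn was 0.996 RPKM in MESC and 0.832 RPKM in MEF, and past the Airn start, outside the shared DNA, it was 0.800 RPKM in MESC and 0.713 RPKM in MEF. Gm16574, annotated inside Airn on the same strand, cannot be told apart from it. Slc22a2 and Slc22a3, cation transporter genes silenced in cis by Airn in placenta, had few reads. Slc22a2 held 2 reads in each library, and Slc22a3 held 25 reads in MESC and 2 reads in MEF, a ratio of 9.58 (2.39 to 83.5). Neither was above the intergenic level in either cell type.

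The stretches of the Gnas locus differed from each other in their ratio of MESC to MEF. Gnas encodes the stimulatory G protein alpha subunit, and its upstream promoters make the Nesp and XL transcripts, while Nespas runs against Nesp. Over its longest model Gnas held 716 reads in MESC and 480 reads in MEF, a ratio of 1.14 (1.02 to 1.29), and the side of 1 on which its body lay changed with the scaling to the median gene. From the Nesp start to the XL start there were 176 reads in MESC and 31 reads in MEF, a ratio of 4.35 (2.96 to 6.60). Of these, 66 in MESC and 18 in MEF lay 10 to 12 kb from the Nesp start, around an annotated Nespas start. From the XL start to the Gnas start there were 139 reads in MESC and 23 reads in MEF, a ratio of 4.63 (2.97 to 7.55). The promoter windows held few reads, 9 in MESC and 1 in MEF for Nesp and 3 in MESC and 0 in MEF for XL. Reads of a stretch were not assigned to a promoter. Only the stretch from the Gnas start to the gene end lay the other way, with 401 reads in MESC and 426 reads in MEF, a ratio of 0.722 (0.628 to 0.829). The ratio of the longest model thus joins parts that differed in opposite directions.

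Nespas, the paternal antisense RNA, had the highest density of the 38 genes in MESC, with an interval that overlaps that of Nnat. It held 634 reads in MESC and 234 reads in MEF, at 5.21 RPKM (4.81 to 5.63) in MESC and 2.51 RPKM (2.20 to 2.85) in MEF, a ratio of 2.08 (1.79 to 2.42). Reads of its strand went on past the annotated end, where the next 30 kb held 769 reads in MESC and 357 reads in MEF, a ratio of 1.65 (1.45 to 1.88). Most of that stretch was filled, with a peak of 163 reads in MESC and 98 reads in MEF from 20 to 18 kb before the Nesp start. From 34 to 24 kb before it, each 2 kb held at most 3 reads in either library. At the Nespas start at position 174110936 the promoter window held 49 reads in MESC and 7 reads in MEF.

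**Figure D5:**
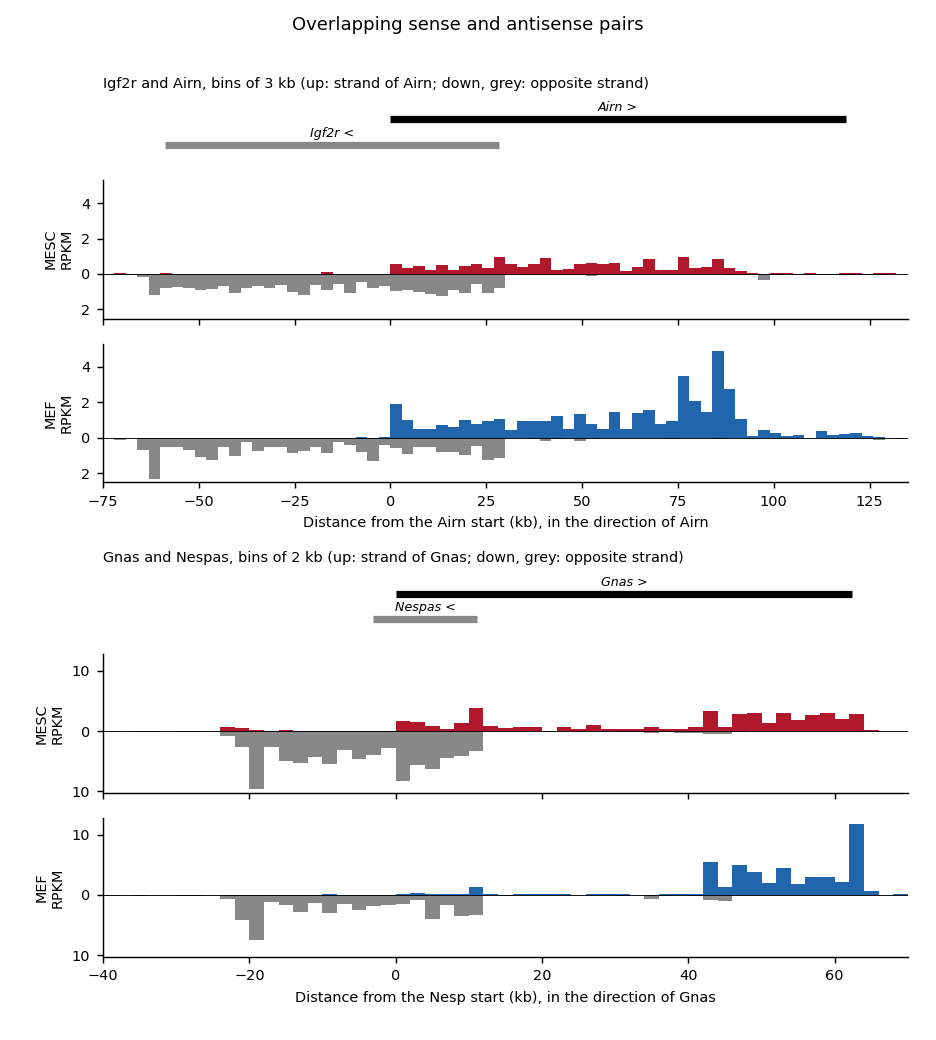
Read density (RPKM) by distance from the Airn start (top, bins of 3 kb) and from the Nesp start of Gnas (bottom, bins of 2 kb), MESC above MEF. Coloured bars upward are the strand of Airn or Gnas and grey bars downward the strand of Igf2r or Nespas. Airn bars are taller in MEF and most so between 75 and 90 kb, while Nespas and the upstream part of Gnas are taller in MESC.

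The bodies of Mest and Peg10 were both higher in MESC. Their promoter windows had intervals that held a ratio of 1. The main Mest start had 12 reads in MESC and 7 in MEF, a ratio of 1.31 (0.477 to 3.94). The Peg10 start had 26 reads in MESC and 10 in MEF, a ratio of 1.99 (0.930 to 4.63). Mest, a paternally expressed hydrolase-fold gene, held 205 reads in MESC and 47 reads in MEF, a body ratio of 3.34 (2.43 to 4.69). Its strand stayed filled beyond the gene into the 3′ end of Copg2, where the 5.26 kb before an assembly gap held 377 reads in MESC and 81 reads in MEF. Past that 50 kb gap of unknown bases the Mest strand held 15 reads in MESC and 16 reads in MEF. Copg2, a coat protein subunit gene on the opposite strand, held 342 reads in MESC and 187 reads in MEF, a body ratio of 1.33 (1.10 to 1.61). Only 11 sense reads in MESC and 5 in MEF lay in the part before the gap that Mest reads fill. Counted over its 99.2 kb of known bases, the Copg2 density was 0.402 RPKM in MESC and 0.287 RPKM in MEF.

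Peg10 and Sgce start 102 bp apart on opposite strands, and both are paternally expressed. Peg10, a gene derived from a retrotransposon and needed in placenta, held 282 reads in MESC and 69 reads in MEF, a body ratio of 3.22 (2.36 to 4.46). Sgce, which encodes epsilon-sarcoglycan, held 97 reads in MESC and 139 reads in MEF, which is 1.87-fold (1.43 to 2.45) lower in MESC. Genes that share a start region thus lay on opposite sides of a ratio of 1. The density of Peg10 differed between MESC read lengths, 1.81 RPKM for 35 bases and 3.08 RPKM for 36 bases, and its log2 body ratio was 1.14 with the shorter reads alone and 2.03, past 4-fold, with the longer reads alone.

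Peg3, a zinc finger gene, and Usp29, a ubiquitin protease gene, start 164 bp apart on opposite strands, and both are paternally expressed. Peg3 held 336 reads in MESC and 275 reads in MEF, at 1.48 RPKM (1.32 to 1.64) in MESC and 1.58 RPKM (1.40 to 1.78) in MEF, and its body interval held a ratio of 1. On the other side Usp29 had few reads, with 59 reads in MESC and 55 reads in MEF over the first 50 kb from its RefSeq start. Its coding exon, 231 kb from that start, held 1 read in MESC and 3 reads in MEF. Zim1, a maternally expressed zinc finger gene next to Peg3 on the same strand, held 27 reads in MESC and 63 reads in MEF, which is 3.04-fold (1.91 to 4.97) lower in MESC. The 7.44 kb between Peg3 and Zim1 held 62 reads in MESC and 48 reads in MEF, at a density close to that of Peg3, so reads of Peg3 that run on and reads of Zim1 cannot be told apart. The Zim1 promoter window, at 1 read in MESC and 18 reads in MEF, was 23.5-fold (3.71 to 978) lower in MESC and lay just under the read minimum.

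Grb10, Plagl1 and Impact are single imprinted loci. Grb10, an adaptor protein that damps insulin signalling, held 1070 reads in MESC and 1693 reads in MEF, at 1.17 RPKM (1.10 to 1.24) in MESC and 2.41 RPKM (2.30 to 2.53) in MEF. Plagl1, a zinc finger gene that slows the cell cycle, held 130 reads in MESC and 249 reads in MEF, which is 2.50-fold (2.01 to 3.11) lower in MESC. Its body ratio crossed 4-fold when the MESC reads of 35 bases were used alone, at a log2 ratio of -2.43 in place of -1.45, and with the reads of 36 bases alone it was -0.94. Impact, a regulator of translation under stress, held 462 reads in MESC and 272 reads in MEF, a body ratio of 1.48 (1.24 to 1.76). Grb10 and Plagl1 lay on the MEF side and Impact on the MESC side.

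Of the remaining genes, Zrsr1, a splicing-factor retrogene inside Commd1, held 44 reads in MESC and 19 reads in MEF, a ratio of 1.78 (1.02 to 3.22). Commd1, its host on the other strand with a role in copper handling, held 682 reads in MESC and 360 reads in MEF, a body ratio of 1.44 (1.27 to 1.65). The Commd1 model overlaps B3gnt2 on the same strand, and that part alone held 268 reads in MESC and 121 reads in MEF. Rasgrf1, a Ras exchange factor of neurons, held 11 reads in MESC and 2 reads in MEF over 117 kb and was not above the intergenic level in either. Trappc9, a trafficking gene that hosts Peg13 on its other strand, held 683 reads in MESC and 612 reads in MEF, a body ratio of 0.844 (0.755 to 0.943). The opposite strand of Trappc9 held 44 reads in MESC and 28 reads in MEF.

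Plagl1 had the highest pausing index of the imprinted genes measured. The pausing index is promoter density over body density within a library, so it does not depend on the scaling. For Plagl1 it was 91.8 (63.9 to 132) in MESC and 74.0 (56.8 to 96.1) in MEF, and with each position counted once 63.7 (41.7 to 96.1) in MESC and 41.1 (29.4 to 56.6) in MEF, still the highest of the imprinted genes measured. The index had a median of 5.99 over 14 imprinted genes in MESC and 6.66 over 13 in MEF, each with at least 10 reads in both windows. All genes with at least 20 reads in both had medians of 10.5 in MESC and 13.3 in MEF, and the reads required differ between these sets. Copg2, with its unknown bases left out of the body length, stood at 20.4 (12.6 to 31.5) in MESC, over 22 promoter and 302 body reads, and Zim1 at 26.4 (14.2 to 47.2) in MEF. Nespas, at 0.901 (0.490 to 1.52) in MESC, had no excess at the start of its longest model. Its most used start lies inside the body of that model. The window there had 3.15 (2.31 to 4.22) times the density of that whole body in MESC, which is not an index for a body counted from that start. For Meg3 it was 6.24 (4.89 to 7.88) in MESC and 6.66 (5.12 to 8.53) in MEF, and with each position counted once 2.57 in MESC and 3.01 in MEF.

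In this cross a read can carry a strain difference, since the genome sequence is of the mother's strain and a base that departs from it at a strain difference comes from the father's. Sites for each library were those at which the other library had at least 2 reads with the same departing base and different 5′ ends, and each 5′ end was counted once. Sites found in this way favour genes transcribed from the father's chromosome in both cell types, and they can include sequencing errors. A read can cover more than 1 site, so the intervals are too narrow. Chromosome X, which male cells have from the mother alone, serves as background: 16.1% of its reads at such sites departed in MESC and 10.8% in MEF, beside 18.5% in MESC and 12.0% in MEF over the autosomes. The autosomal share thus lay little above that background.

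Impact, known as paternally expressed, had the highest share of the 4 imprinted genes with at least 20 reads in MESC, and was the only 1 with that many in MEF. Of its reads at 11 sites, 20 of 28 in MESC and 23 of 29 in MEF carried the departing base, 71.4% (51.3 to 86.8) in MESC and 79.3% (60.3 to 92.0) in MEF. Over all autosomal genes with at least 20 such reads, 90% of genes lay at or below 50% in MESC and 39.1% in MEF. Nespas had 15 of 26 reads in MESC and 7 of 7 reads in MEF with the departing base, at sites that Gnas shares on its other strand. In MESC the same 26 reads, all on the Nespas strand, also count for Gnas among the 4 genes. Plagl1, also known as paternally expressed, had 2 of 29 reads at 2 sites in MESC and 2 of 18 reads at 1 site in MEF. That is near the chromosome X share. Plagl1 had no reads left where a site needed at least 3 departing reads, or a share of at least 20% in the other library. Whether its sites are strain differences was not tested.

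Over all paternally expressed genes of the list the share was 43.0% of 86 reads (32.4 to 54.2) in MESC and 48.6% of 70 reads (36.4 to 60.8) in MEF. Without Impact it was 29.3% of 58 reads in MESC and 26.8% of 41 reads in MEF. Maternally expressed genes gave 13.6% of 22 reads (2.91 to 34.9) in MESC and 10.3% of 29 reads (2.19 to 27.4) in MEF. Both intervals hold the share of chromosome X and also that of the autosomes, so they cannot tell these genes from either. With sites found in both libraries together, where a library's own reads help to choose the sites, the maternally expressed genes gave 28.7% of 122 reads (20.9 to 37.6) in MESC and 26.0% of 100 reads (17.7 to 35.7) in MEF. Chromosome X then gave 21.4% in MESC and 15.4% in MEF, and the MEF interval does not hold it. The paternally expressed genes without Impact gave 36.2% (28.3 to 44.7) in MESC and 26.9% (18.2 to 37.1) in MEF by that rule, so the shares of both kinds of gene lay close in MEF. Meg3 had 2 of 13 reads in MESC and 3 of 14 reads in MEF, and Grb10 had 0 of 4 reads in MESC and 0 of 9 reads in MEF. On the Gnas strand itself, 3 further sites in MEF gave 0 of 8 reads. All remaining genes had under 10 reads at such sites.

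A second list of 40 imprinted genes served as a comparison. Of its 23 genes with enough reads, 4 passed 4-fold toward MESC and 3 toward MEF, beside 7.94% of all genes tested toward MESC and 5.55% toward MEF, and their median log2 ratio was 0.41. Calcr, the calcitonin receptor gene, held 63 body reads in MESC but 0 in MEF. With 3 reads standing for the 0 it was 16.1-fold higher in MESC, and the lower bound of its ratio from the counts was 12.7. Zdbf2 held 854 body reads in MESC and 76 in MEF, a ratio of 8.61. Ppp1r9a, which encodes neurabin, and Sfmbt2, a Polycomb group gene, were 6.33-fold and 6.31-fold higher in MESC. On the MEF side, the serotonin receptor gene Htr2a was 11.3-fold and the receptor kinase gene Axl 4.88-fold lower in MESC, and Osbpl5 was 4.14-fold lower in MESC.

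Genes that write, read or erase imprints were measured beside them, as a list of 15 of which 14 had enough reads. Of these 14, 3 passed 4-fold toward MESC and 0 toward MEF, beside 7.94% of all genes tested toward MESC and 5.55% toward MEF. Dnmt3b, a de novo DNA methyltransferase, held 1194 body reads in MESC and 37 in MEF, a ratio of 24.7. Tet1, which oxidises methylcytosine, held 1867 body reads in MESC and 172 in MEF, a ratio of 8.32. Dnmt3l, the cofactor of de novo methylation, held 188 body reads in MESC and 30 in MEF, a ratio of 4.80. Trim28, Ctcf and Setdb1 lay within 4-fold, at 1.94-fold, 1.71-fold and 1.71-fold higher in MESC. Zfp57, which reads methylated imprinting control regions, held 248 body reads in MESC and 154 in MEF, and the maintenance methyltransferase gene Dnmt1 held 827 in MESC and 646 in MEF.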

How the data were processed

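Each line of the deposited files is an aligned read, listed by position and strand, with its sequence and a value of 1. The unit is thus the raw count of reads, and the deposited values show no normalization. Per the file headers, the libraries were merged by cell type. Eland placed the reads on mm9, and those in regions similar to rRNA were removed, per the series design text. For reads with several matches, no source used here gives the treatment, nor is the Eland version given. The reads carry no sample name, so a test across samples was not made and no p-value between cell types was computed.

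Reads were counted by 5′ end and strand with Python 3.11.15, numpy 2.4.6 and scipy 1.17.1 on GENCODE models of NCBIM37, using the longest transcript of each gene. Kcnq1ot1 was placed by its RefSeq promoter and length, and the Usp29 model covers its coding exon only. Of all reads, 93.0% in MESC and 95.5% in MEF matched the assembly with at most 2 mismatches, and 74.4% in MESC and 71.3% in MEF lay at distinct positions. RPKM used 8571395 MESC and 6571116 MEF reads outside the mitochondrial genome. The minimum in 1 library was 50 reads for bodies and 20 for promoter windows, on models of at least 2000 bp. A call needed a ratio of 4 with 3 reads standing for any lower count. Density intervals are Poisson and ratio intervals are conditional Clopper-Pearson, and allele shares have Clopper-Pearson intervals. R 4.3.3 with edgeR 4.0.16 gave TMM factors only, as an alternative scaling, and matplotlib 3.10.9 drew the figures.

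All 39 genes are named by rule. Of the other lists, genes past 4-fold are named, with up to 3 further regulators by size and Zfp57 and Dnmt1 added after their values were seen. The genes and lists were chosen with earlier results of these data known. Alternatives were 3 other scalings, distinct positions, thinned MESC reads, each MESC read length alone, other windows, models, minimums and fold limits, and other site rules for the shares. The closing section gives the results they moved. Columns of samples outside the series numbered 0. Signal tracks were not used here.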

Additional observations from a re-analysis of the deposited data

How the results depend on the processing

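No paired analysis was possible because the files pool the samples of a cell type and the reads carry no sample name, and leaving out replicates was not possible for the same reason. The count of 3 imprinted genes with bodies past 4-fold became 7 of 34 genes with at least 3 reads in 1 library, which adds Nnat, Magel2, Slc22a18 and Slc22a3. It became 1 of 19 with at least 200 reads (Snrpn) and 9 of 23 with a ratio of at least 2. These counts follow from the minimum or the ratio required. Of all genes with at least 3 reads, 8.49% passed 4-fold toward MESC and 5.52% toward MEF. With at least 200 reads the shares of all genes were 5.44% toward MESC and 6.03% toward MEF. With a ratio of at least 2 they were 20.5% toward MESC and 12.8% toward MEF. The count of 3 promoter windows became 1 of 7 with each position counted once (H19) and 5 of 16 at the annotated start with the most reads (Nnat, Nespas, Snrpn, H19 and Igf2), and the cause was not tested. From 200 bp before to 600 bp after the start, 3 of 15 windows passed, Nnat toward MESC and Zim1 and H19 toward MEF. The count was 2 (Nnat and H19) with each other scaling, with MESC thinned, with either MESC read length and with at least 50 reads. Of all windows, 3.61% passed toward MESC and 2.13% toward MEF with each position counted once. At the start with the most reads these shares were 6.73% toward MESC and 3.47% toward MEF, and with the wider window 5.87% and 3.23%. Under the settings that left 2 windows, they lay from 3.58% to 5.66% toward MESC and from 2.17% to 5.06% toward MEF. Of 23 log2 body ratios, 18 kept their sign in every alternative run, and those of Kcnq1ot1, Peg3, Ube3a, Igf2r and Gnas did not. Of 206 alternative values of these ratios, 165 stayed within the interval of the reported value and 41 did not, most of them under the other scalings.

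The departing-base share of paternally expressed genes depended on the site rule, and the cause was not tested. With at least 3 such reads at a site it was 66.7% in MESC and 95.2% in MEF, and with the first 25 bases of a read 75.9% in MESC and 94.4% in MEF. At sites with a share of at least 20% in the other library, a rule chosen after seeing the data, it was 61.4% in MESC and 61.5% in MEF. The share of chromosome X moved too, to 25.4% in MESC and 14.3% in MEF with at least 3 reads, to 19% in MESC and 15.6% in MEF with the first 25 bases, and to 29.4% in MESC and 22.2% in MEF at sites with a share of at least 20%. That of the autosomes was then 27.1% in MESC and 19.6% in MEF, 24.9% in MESC and 25% in MEF, and 34.7% in MESC and 27.3% in MEF. For maternally expressed genes it was 0% in MESC with the first 25 bases, over 1 read, and 0% in MESC and 0% in MEF with at most 1 mismatch, over 4 and 5 reads. At least 3 reads in MESC and the first 25 bases in MEF left no reads of maternally expressed genes. Sense reads alone gave 44.0% in MESC and 48.6% in MEF for paternally and 13.6% in MESC and 15.8% in MEF for maternally expressed genes. Sites found in both libraries together gave 46.5% in MESC and 46.0% in MEF for paternally expressed genes, and the report gives the maternal shares. The other alternatives chosen after seeing the data were overlapping genes left out, which kept the 3 bodies, and every read counted. Every read counted gave paternally expressed genes 42.3% in MESC and 37.2% in MEF and maternally expressed genes 12.5% in MESC and 9.09% in MEF, while chromosome X fell to 1.77% in MESC and 1.21% in MEF and the autosomes to 4.26% in MESC and 1.85% in MEF. Depth limits the 15 genes that had too few body reads or a short model.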
